A study of Rattus norvegicus with 2 samples.

Results

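Vasoactive intestinal peptide (VIP), pituitary adenylate cyclase-activating polypeptide (PACAP) and a group of peptides known from the suprachiasmatic nucleus were followed in the rat hypothalamus through 9 genes. The genes were taken by name: Vip and Adcyap1 (which encodes PACAP), their receptor genes Vipr1, Vipr2 and Adcyap1r1, and the peptide genes Grp, Nmb, Nmu and Nms. They were found on the arrays through RefSeq accessions, on 13 probes and 14 spots, among 39500 genes and unnamed transcripts. Of the 9 genes, 8 were well above background on both arrays, and Nms was not on either. The samples were hypothalamus from adult spontaneously hypertensive rats (SHR), an inbred strain with genetic hypertension, all aged 9 weeks and fed freely, with no treatment named. The sources used here do not give the time of day at which they were killed. RNA of 5 males made up one pool and RNA of 5 females the other, with 100 ng from each rat, and each pool was hybridised to 1 single-colour microarray. With 1 array per sex there is no replicate, so no test between the sexes could be made and every difference describes these pools only. A pool also hides how far single rats differ, and precision is limited by there being 2 arrays.

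VIP and PACAP are related peptides of the secretin family. VIP acts mainly through Vipr1 and Vipr2, PACAP through both of these and, with preference, through Adcyap1r1; all are receptors coupled to the G protein that raises cyclic AMP. In the suprachiasmatic nucleus, the central circadian clock, VIP cells of the ventral core receive light input from the retina and keep clock cells synchronised through Vipr2, many core cells make gastrin-releasing peptide (Grp), and neuromedin S (Nms) marks a wide set of clock neurons. PACAP is carried to the nucleus by retinal ganglion cells and is also made in the ventromedial and paraventricular hypothalamus. Neuromedin B (Nmb) is a bombesin-like peptide related to GRP, and neuromedin U (Nmu) shares receptors with neuromedin S. The tissue here is a whole hypothalamic block, so fewer cells of a type and less RNA per cell cannot be told apart.

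The windows from 250 bases before to 50 bases after the annotated start are shown for Vip, Vipr1, Grp and Nmu, which are all of the 9 genes whose window holds a half-site of the cyclic AMP response element. The first and the third were slightly higher in the male pool and the others lower on their brightest probe, so these genes did not share a direction. The sequences are from RefSeq (GRCr8), 5′ to 3′ on the gene's strand, and capitals mark TGACG or its reverse complement.

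Vip promoter window, chr1:44470230-44470529, + strand: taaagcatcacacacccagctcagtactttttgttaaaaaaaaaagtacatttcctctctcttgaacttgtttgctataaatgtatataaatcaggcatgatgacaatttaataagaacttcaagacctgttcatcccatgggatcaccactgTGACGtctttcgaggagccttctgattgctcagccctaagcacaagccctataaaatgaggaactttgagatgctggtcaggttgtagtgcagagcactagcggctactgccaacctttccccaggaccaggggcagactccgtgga

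Vipr1 promoter window, chr8:130187511-130187810, + strand: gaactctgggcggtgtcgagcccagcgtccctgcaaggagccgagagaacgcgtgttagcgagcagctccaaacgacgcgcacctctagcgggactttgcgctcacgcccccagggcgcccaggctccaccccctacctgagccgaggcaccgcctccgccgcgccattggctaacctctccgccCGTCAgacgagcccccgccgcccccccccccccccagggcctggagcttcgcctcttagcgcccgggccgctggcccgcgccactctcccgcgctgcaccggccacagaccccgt

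Grp promoter window, chr18:61658405-61658704, + strand: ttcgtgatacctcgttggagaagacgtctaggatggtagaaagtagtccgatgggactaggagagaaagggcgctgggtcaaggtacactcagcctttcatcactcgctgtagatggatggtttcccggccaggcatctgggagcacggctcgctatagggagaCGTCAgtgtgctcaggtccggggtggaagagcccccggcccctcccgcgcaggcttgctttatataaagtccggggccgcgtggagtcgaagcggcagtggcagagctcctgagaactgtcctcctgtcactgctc

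Nmu promoter window, chr14:32198693-32198992, + strand: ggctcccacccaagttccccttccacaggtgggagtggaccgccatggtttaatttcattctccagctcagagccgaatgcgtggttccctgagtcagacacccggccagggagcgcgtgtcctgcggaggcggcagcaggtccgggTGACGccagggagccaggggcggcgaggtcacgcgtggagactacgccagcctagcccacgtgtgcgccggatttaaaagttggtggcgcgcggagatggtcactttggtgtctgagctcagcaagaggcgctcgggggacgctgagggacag

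The half-site TGACG, searched on both strands, was in the windows of these 4 of the 9 genes, and in 21.2% of all 33469 rat windows. The full element TGACGTCA, which overlaps the half-site, was in 0 of the 9 windows and in 1.83% of all windows. The E-box CACGTG, the element bound by clock transcription factors, was in those of Nmu and Nmb, and in 6.42% of all. A match here is a description of the letters and not of a working site.

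Signals are given as a percentage of the array's 75th percentile, which was 2203 intensity units in the male and 2254 units in the female pool over a local background of 33 units. Differences are male minus female on the log2 scale after this scaling, so a positive value is higher in the male pool. For the peptide and receptor genes each stands beside the software's error, which was combined from the errors that the scanner software gives for the male and the female signal. This error was from 0.20 to 0.32 for the 12 measured probes. For Vip, Vipr2, Grp, Nmb, both Adcyap1 probes and the brightest Adcyap1r1 probe it was 0.20. There the software's error was nearly a fixed share of each signal, so 0.20 is close to a floor and is not specific to the gene. Most differences of the peptide and receptor genes also stand beside the SD of such a difference among repeat spots of probes of like signal, from 0.027 to 0.23. Both errors are technical and leave out the rats. Brightness also depends on a probe's own sequence, so a probe's percentile says where it lies on its array and does not rank transcripts of different genes by amount.

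None of the 8 measured genes was at least 2-fold apart between the pools (0 of 8), against 4.17% of the 26109 genes and transcripts without a symbol that either array measured (2.54% higher and 1.64% lower in the male pool). Among those well above background on both arrays, as these 8 were, 426 of 24140 were 2-fold apart (278 higher and 148 lower). The brightest probes of 5 genes were higher in the male pool (Vip, Vipr2, Adcyap1r1, Grp and Nmb) and those of 3 lower (Adcyap1, Vipr1 and Nmu). Their median difference was 0.067 (0.021 to 0.12 over the other ways of processing), and that of all 24140 genes on both arrays was -0.016. Over all 12 probes, 7 were higher and 5 lower, from -0.48 for Nmu to 0.36 for the dimmer Vipr1 probe. In 6 of these probes the difference was over 2 repeat-spot SD, and in 1 of them, Nmu, it was also over 2 times the software's error. For these 6, between 5.09% and 24.9% of all probes of like signal were at least as far from 0. The share of all probes over 2 repeat-spot SD was not counted, so the 6 are not set apart from other genes. No probe of the 8 genes moved by more than 4.19 percentile points in its rank on the array.

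**Figure D1:**
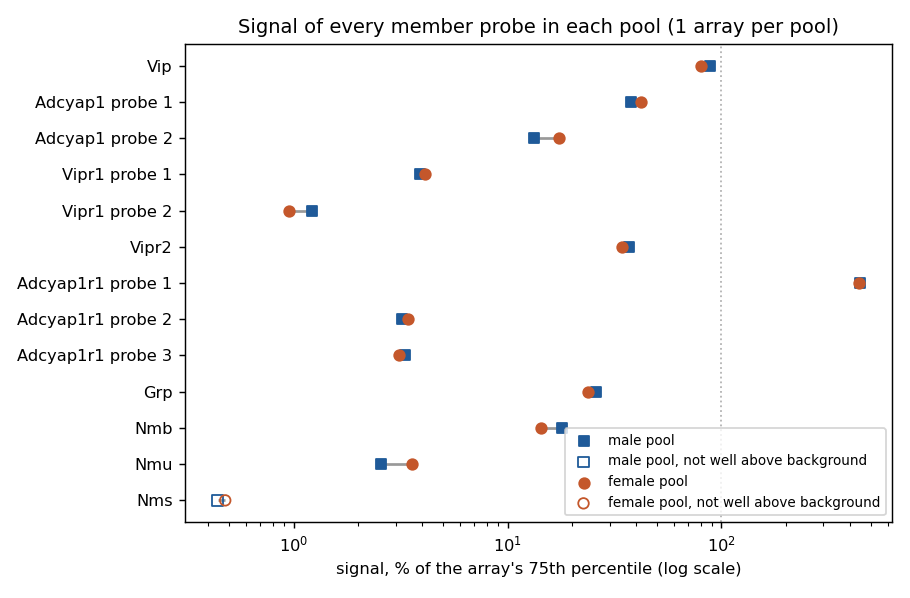
Signal of each of the 13 probes in the male pool (squares) and the female pool (circles), as a percentage of the array's 75th percentile on a log scale, with 1 array per pool and probes of a gene numbered from the brightest. Paired symbols lie close together at every level, from Adcyap1r1 at 446% and 439% down to Nms, whose open symbols mark a signal not well above background.

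**Figure D2:**
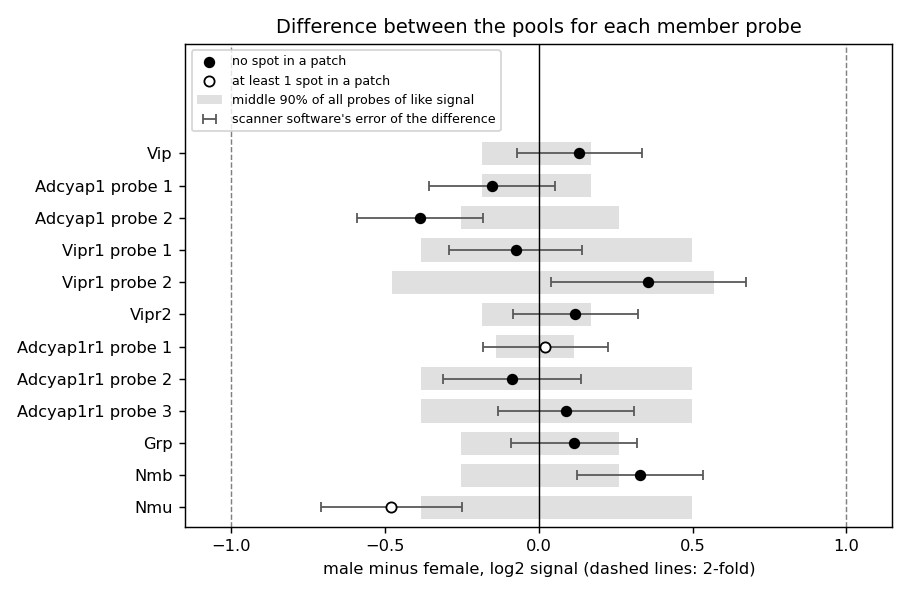
Male minus female log2 difference of the 12 measured probes. Bars are the error combined from the scanner software's errors of both signals, and grey is the range of the middle 90% of all probes of like signal. Nmb at 0.33 lies above its grey range, and the dimmer Adcyap1 probe at -0.39 and Nmu at -0.48 lie below theirs; all lie inside the dashed 2-fold lines.

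Vip was among the brighter signals of the array. Its only probe, for the transcript NM_053991 of chromosome 1, read 1946 units in the male and 1818 units in the female pool. These are 88.3% and 80.7% of the 75th percentile and stand at percentile 87.8 and 87.0 of all probes. The male pool was slightly higher, a log2 difference of 0.13 with a software error of 0.20 and a repeat-spot SD of 0.056. It lay inside the range of the middle 90% of probes of like signal, -0.19 to 0.17, and 20.6% of those probes were at least as far from 0. The spot was outside any patch, meaning that fewer than 2 among the 18 closest spots were 2-fold apart in either direction, and the 18 measured spots nearest to it had a median difference of -0.068.

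Adcyap1, the PACAP precursor gene on chromosome 9, was lower in the male pool on both of its probes. The brighter probe (NM_016989) was at 37.7% in the male and 41.9% in the female pool, at percentile 80.1 and 81.0. Its difference was -0.15, within the software's error of 0.20 but 2.73 times the repeat-spot SD. The dimmer probe (XM_006245673), designed from a predicted transcript model, was at 13.4% in the male and 17.5% in the female pool. There the female pool was 1.31-fold higher, with a difference of -0.39, a software error of 0.20 and a repeat-spot SD of 0.11. That value lay below the range of the middle 90% of probes of like signal (-0.25 to 0.26), and 5.09% of them were at least as far from 0. Neither spot was in a patch, and the median difference of the nearest spots was 0.044 for the brighter probe and -0.044 for the dimmer one. The probes agreed in sign and differed from each other by more than the repeat-spot SD of either; their positions in the transcript are not given in the sources used here.

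The VIP receptor genes did not show one direction. Vipr2, the receptor by which VIP acts in the suprachiasmatic nucleus, was at 37.1% in the male and 34.2% in the female pool (818 and 771 units; NM_017238, chromosome 6). The difference of 0.12 had a software error of 0.20 and a repeat-spot SD of 0.056, and 24.9% of probes of like signal were at least as far from 0. Vipr1, found in brain mostly in cortex and hippocampus, was dim on both of its probes, which share the transcript NM_012685 of chromosome 8. The brighter one read 85.9 units in the male and 92.7 units in the female pool, a difference of -0.08, and the dimmer one 26.8 and 21.4 units, a difference of 0.36. Their signs were opposite. The software's error was 0.22 for the first and 0.32 for the second, and both values lay inside the middle 90% of probes of like signal, so the probes gave no common order of the pools for Vipr1.

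Adcyap1r1, the PACAP-preferring receptor, had the brightest probe of the group and the smallest difference. Probe 1 (NM_001270579, chromosome 4) was at 446% in the male and 439% in the female pool, at percentile 96.8 of all probes on both arrays. Its 2 spots read 9585 and 10061 units on the male array and 9797 and 10018 units on the female array, so that the repeat spots of an array lay farther apart than the means of the arrays. The second of these spots was in a patch, and the differences of the spots were 0.0020 and 0.040. The difference of 0.02 was smaller than its repeat-spot SD of 0.027, and 77.5% of probes of like signal were at least as far from 0. The other probes, for NM_133511 and again for NM_001270579, were at 3.21% and 3.32% in the male and at 3.41% and 3.12% in the female pool. Their differences were -0.09 and 0.09, each smaller than the software's error of 0.22.

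Among the bombesin-like peptides, Grp and Nmb were both higher in the male pool. Grp (NM_133570) was at 25.8% in the male and 23.9% in the female pool, 568 and 538 units, at percentile 76.0 and 75.1. The difference of 0.11 was about equal to its repeat-spot SD of 0.11 and below the software's error of 0.20. Nmb (NM_001109149, chromosome 1) was at 17.9% in the male and 14.3% in the female pool, 395 and 322 units, and was 1.26-fold higher in the male pool. This difference of 0.33 was 3.02 times the repeat-spot SD and 1.61 times the software's error, and it lay above the range of the middle 90% of probes of like signal, of which 6.19% were at least as far from 0. The Nmb spot was outside patches, with a median of 0.043 among its 18 nearest measured spots, of which 1 was 2-fold or more above the female value.

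Nmu and Nms, the neuromedins that share receptors, gave dim signals. Nmu (NM_022239, chromosome 14) read 56.3 units in the male and 80.5 units in the female pool, at percentile 48.7 and 52.9. The female pool was 1.40-fold higher, a difference of -0.48 with a software error of 0.23 and a repeat-spot SD of 0.23. This spot was in a patch: of its 18 nearest measured spots, 5 had a male signal lower by 2-fold or more, and the median of the 18 was -0.098. With normexp background correction, which adds 50 units to every spot, the difference was -0.24. The part of the patch in the result was not tested, and no second probe of Nmu was on the array. Nms (NM_001012233, chromosome 9) read 9.71 units in the male and 10.8 units in the female pool and was near background in both pools, below the level that counts as measured. The lowest probe counted as well above background read 15.1 units in the male and 12.9 units in the female pool, so no fold is given.

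**Figure D3:**
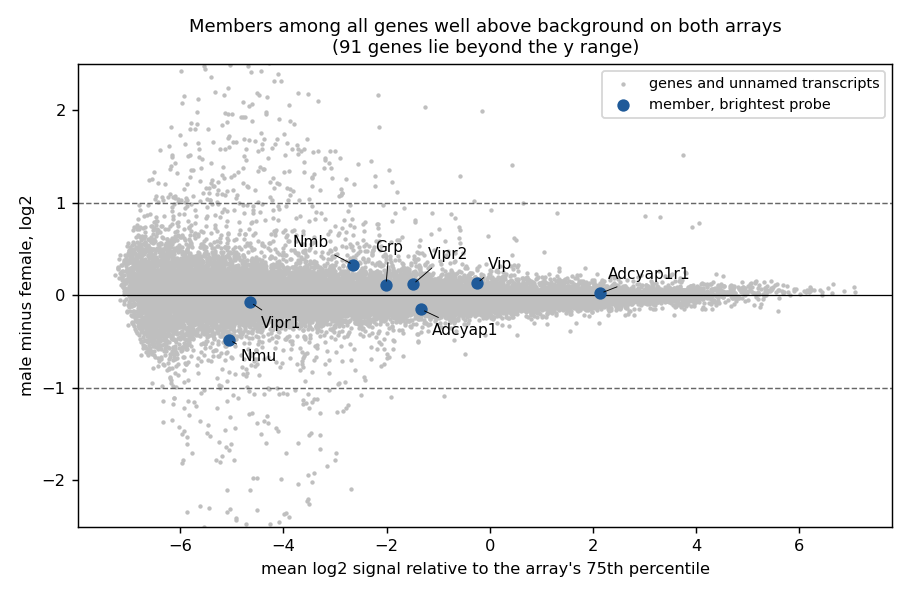
Male minus female log2 difference against the mean log2 signal for all 24140 genes and transcripts measured on both arrays (grey; 91 lie beyond the plotted range), with the 8 measured genes in blue and dashed lines at 2-fold. The blue points run from Nmu at -0.48 on the dim side to Adcyap1r1 at 0.02 on the bright side, inside the grey cloud at every signal.

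The receptors of the other peptides were dim or not measured. Grpr, the GRP receptor, Nmbr, the neuromedin B receptor, and Nmur1, the peripheral neuromedin U receptor, were not measured above background in either pool. Nmur2, the brain receptor of neuromedins U and S, was at 7.01% in the male and 5.79% in the female pool on its brighter probe. Its difference was 0.28, with a software error of 0.21 and a repeat-spot SD of 0.11. Brs3, an orphan receptor of the bombesin family that acts in energy balance, was measured only on a probe designed from a predicted transcript model. It was at 10.1% in the male and 10.6% in the female pool, a difference of -0.07 against a software error of 0.21. The second probes of Nmur2 and Brs3 were not well above background. That of Brs3, not designed from a predicted model, was at 0.18% in the male and 0.15% in the female pool.

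Related genes were read from lists, each described by counts, against 10851 of all genes higher and 13289 of them lower in the male pool. The list of other secretin family peptides and receptors was drawn broadly. It also held peptide genes outside the secretin family proper, such as Crh and Calca, and the accessory genes Ramp1, Ramp2 and Ramp3. Of its genes, 5 were higher and 10 lower, and the median was -0.19 (-0.083 with normexp and -0.11 without spots in patches). Among genes measured on both arrays none was 2-fold apart, and the largest differences were those of Ghrh, the growth hormone releasing hormone gene, at 0.60, and Crh, the stress hormone releasing gene, at -0.40 on a spot in a patch. Crhr2, a receptor of the corticotropin-releasing peptides, was measured in the male pool only, at 1.12%, where it was higher by at least 0.96 on the log2 scale. Other suprachiasmatic peptides and receptors divided into 3 higher and 8 lower around a median of -0.15. The vasopressin receptor gene Avpr1a was at -0.44 and the neurotensin gene Nts at -0.39. The 3 higher genes were Avp, made by cells of the suprachiasmatic shell and in far greater amount by neurosecretory neurons, at 0.14, Cck at 0.14 and Sst at 0.20, where 2 of 10 spots were in patches. Prok2, an output signal of the clock, was not measured above background in either pool. Suprachiasmatic transcription factors were 3 higher and 6 lower, median -0.18 (-0.078 with normexp). Many genes of these suprachiasmatic lists are also expressed outside the nucleus. In a whole hypothalamic block neither median therefore describes the nucleus itself. Lhx1, which controls synchrony of clock cells, was at -0.18, and Six6, needed for the nucleus to form, was lower in males by at least 20.4-fold, a bound from 1 spot that lay in a patch.

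Downstream of the receptors, 9 of 30 genes on the list of cyclic AMP signalling were higher in males and 21 lower. The median was -0.048 (-0.079 with median centring and -0.025 with normexp). This list was also drawn broadly and held Gnaq, Plcb1 and Plcb4, which belong to phospholipase C signalling. Gnas, the stimulatory G protein gene, was at 0.07. The 2 largest differences, Gnaq at -0.69 and Adcy7 at -0.35, were on dim spots in patches. Genes that respond to light or cyclic AMP were 12 higher and 5 lower, around a median of 0.10. Nr4a1, an orphan nuclear receptor, was at 0.57 over 10 spots and the transcription factor gene Fos at 0.57 over 2 spots. The clock genes Per1 and Per2, which light induces in the suprachiasmatic nucleus, were at -0.10 and -0.30. For peptide processing and secretion, 2 genes were higher and 11 lower, around a median of -0.10. The amidating enzyme gene Pam was at -0.14, the granin gene Scg2 at -0.15 and the convertase gene Pcsk5 at 0.58 on a spot in a patch.

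**Figure D4:**
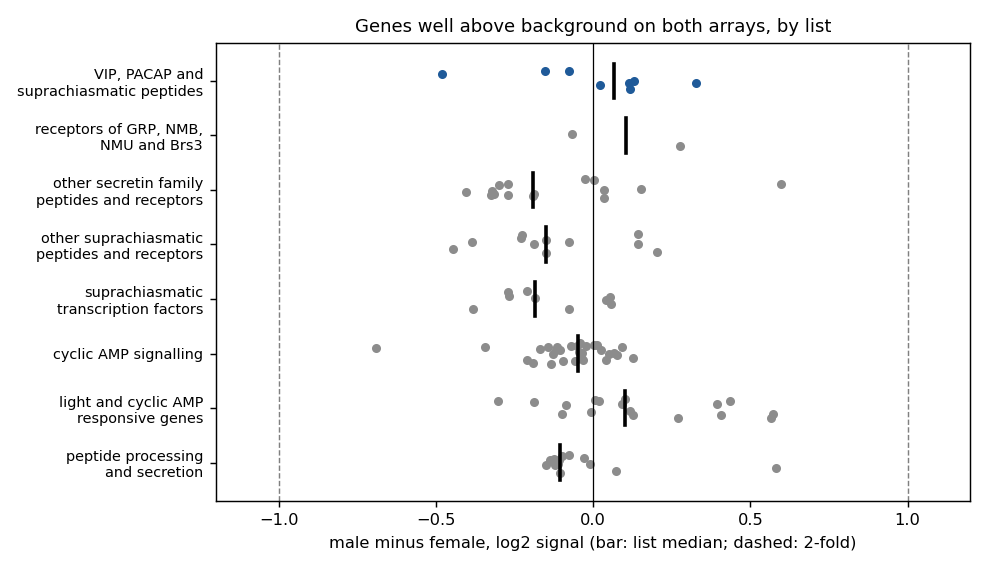
Male minus female log2 difference of each gene well above background on both arrays (points, spread vertically for visibility), by list, with the list median as a black bar and dashed lines at 2-fold. The 8 peptide and receptor genes have a median of 0.067 and the light and cyclic AMP responsive genes 0.10. The broadly drawn list of other secretin family genes has -0.19. Six6, whose difference is a bound, is not plotted.

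The label of the tissue was set against defining hypothalamic genes, of which 16 of 17 were measured on at least 1 array; Nr5a1, which marks the ventromedial nucleus, was not. Of the 15 measured on both, the male value was higher for 3 and lower for 12, around a median of -0.17 and with sums of 9466% in the male and 9769% in the female pool. Pmch, at 4522% and 5079%, and Avp, at 3103% and 2813%, made up most of these sums. One of the 15, Kiss1, which drives gonadotropin release, was 2-fold apart, at -1.22. That value came from 1 dim spot, at 1.07% in the male and 2.49% in the female pool. Several lists of cell and region markers also differed between the pools. Neuron genes were 2 higher and 14 lower, around a median of -0.061, and their signals summed to 5237% in the male and 5548% in the female pool. All 12 measured meningeal fibroblast genes were higher in males, by a median of 1.25, with sums of 513% and 213%. Red blood cell genes (5 of 5 higher, median 0.84, sums of 2357% and 1369%) and oligodendrocyte genes (12 of 12 higher, median 0.10, sums of 18182% and 16808%) were higher there too. These sums rest largely on single genes. Hba-a1 read 2178% and 1268%, with 3 of 8 spots in patches, and Mbp 9743% and 9224%, on a spot in a patch. The cortex and hippocampus list, regions where Vip, Vipr1 and Grp are also expressed, was 3 higher and 5 lower around a median of -0.081. Its sums of 732% and 759% were mostly Prox1, at 670% and 705%, and say little of the other genes. Tbr1 was not well above background, and Cux2, on a spot in a patch, was at 2.96. Of the pituitary genes, 4 were higher and 2 lower, around a median of 0.22 and with sums of 147% and 68.5%. Tshb, the thyrotropin beta gene, was at 3.64 and Cga, the common glycoprotein hormone subunit gene, at 2.03, while the prolactin gene Prl was measured in the female pool only, at 5.43%; Cga and Prl lay in patches. Striatum and amygdala genes were 1 higher and 9 lower (median -0.16, sums of 408% and 449%). Astrocyte and tanycyte genes were 8 of 8 higher (median 0.10, sums of 4850% and 4451%), and choroid plexus and ependyma genes 7 of 8 (median 0.25, sums of 289% and 214%). Microglia genes were 9 higher and 2 lower (median 0.092), and endothelium and mural cell genes 7 higher and 3 lower (median 0.10). Thalamus genes were evenly split, 4 higher and 4 lower, around a median of -0.029. The part of all these markers in the values of the peptide and receptor genes was not tested.

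The direction of each gene was followed under 10 other ways of processing the arrays. Keeping outlier spots, other filters on dim probes and the deposited matrix left the values of these genes where they were, so they say nothing about direction. The mean over probes turned Vipr1 from -0.08 to 0.14. Median centring moved every gene down alike, the median of all genes from -0.016 to -0.047, and Adcyap1r1 with it from 0.02 to -0.01, on the higher side of all genes in both. Vip stayed between 0.10 and 0.14, Vipr2 between 0.09 and 0.12, Grp between 0.08 and 0.11 and Nmb between 0.30 and 0.33. For these genes, leaving out spots in patches and the mean over probes could not move the value, since each had a single probe outside patches. Scaling over probes well above background on both arrays moved every gene alike, Vip from 0.131 to 0.133. Adcyap1 ranged from -0.27, the mean over its probes, to -0.14.

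**Figure D5:**
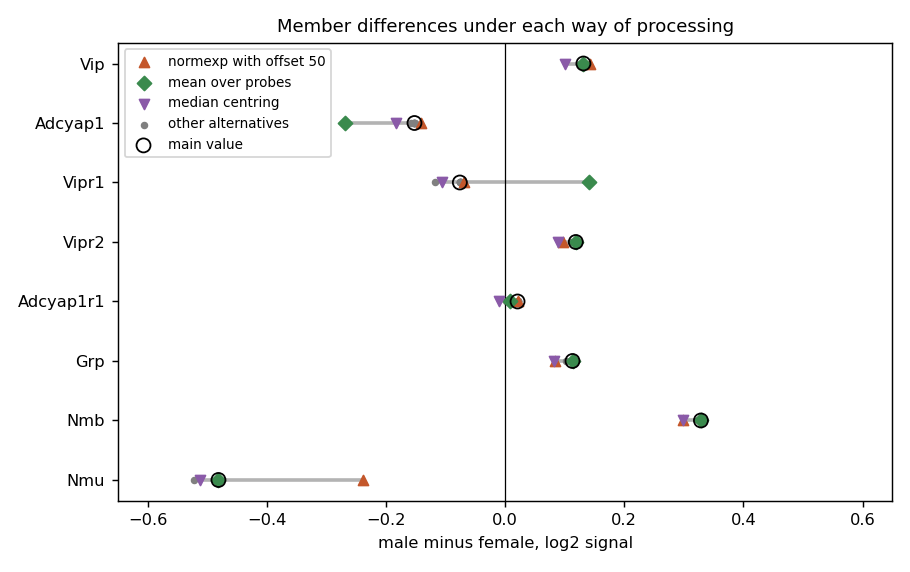
Male minus female log2 difference of the 8 measured genes as reported (open circles) and under each alternative (other symbols), with a grey bar from the lowest to the highest alternative. Nmb keeps values from 0.30 to 0.33, Nmu moves from -0.48 to -0.24 with normexp, and the bar of Vipr1 crosses 0 through the mean over probes.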

How the data were processed

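The values used are, per the file headers, processed intensities from Agilent's Feature Extraction 11.5.1.1 (protocol GE1_1105_Oct12, design build rn4), background-subtracted and not scaled between arrays, together with the software's error for each; the submitters' processing notes name version 9.1. Processed values were not simply a spot's median signal less its local background. On the male array Vip had a median of 1762.5 over a background of 30.5 and a processed value of 1946 units. Vipr2 had 947 over 37 there and a processed value of 818 units. The deposited series matrix holds intensities equal, within 0.401%, to the processed signal over the array's 75th percentile times 100.

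From these, 664 of 58717 spots with an outlier flag were left out, each array's 75th percentile was subtracted from its log2 signals, a probe's spots were averaged, and accessions were matched to GRCr8 symbols (46.3% of probes). No spot was saturated. A spot was in a patch when at least 2 of its 18 nearest measured spots of other probes were at least 2-fold apart in 1 direction. Of measured spots 2-fold apart, 73.0% were in patches, against 10.6% of other measured spots. A gene with several probes was represented by its brightest. For a gene measured in 1 pool alone, the dim side is the higher of its own signal and the array's lowest probe well above background, and the fold is "at least". No test was run; the scripts were tested on simulated data. All 9 genes were named whatever their values, with each pathway list's genes at least 2-fold apart or else the 2 with the largest difference among those measured on both arrays. Some other genes named (Avp, Cck, Sst, Lhx1, Prok2, Gnas, Per1, Per2, Pam, Crhr2, Kiss1, Nr5a1, Pmch, Hba-a1, Mbp, Cux2, Tbr1, Prox1, Tshb, Cga, Prl) were added after their values were seen. Members and lists were chosen with earlier results of these data known. Normexp used the spot median signal in limma 3.58.1 (R 4.3.3).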

Additional observations from a re-analysis of the deposited data

How the results depend on the processing

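No member gene was at least 2-fold apart under any of the 10 alternatives, and the members' median stayed between 0.021 (no filter on dim probes, Nms included) and 0.12 (mean over probes). The count of all genes at least 2-fold apart moved from 1090 (662 higher and 428 lower in the male pool) to 491 with normexp, 144 without spots in patches (111 higher, 33 lower), 2653 with no filter on dim probes and 426 with probes well above background on both arrays. Beyond the repeat-spot SD moved Adcyap1 with the mean over probes, Nmu with normexp, and Adcyap1r1 with median centring, a shift common to all genes. Kept outliers, both dim filters and the deposited matrix could not move these 8 genes. Without spots in patches Nmu had no value. No paired analysis was possible because each sex had 1 array. Signal over background limits Nms and, on single dim spots, Nmu and Vipr1.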
